A study of Rattus norvegicus with 13 samples.

Results

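The miRNAs rno-miR-99a, rno-miR-99b, rno-miR-100, rno-miR-125a-5p and rno-miR-125b-5p, given without the species prefix from here on, were followed across 4 kinds of primary rat cortical culture. They were chosen by name, as the miR-99/100 and miR-125 miRNAs that are encoded together with let-7 genes, and they are 5 of the 350 miRNAs on the array. All 5 were detected on 13 of 13 arrays and all 5 entered the tests, which covered 268 miRNAs detected on at least 3 arrays.

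All cultures came from cortices of P1 rats (postnatal day 1), and the labels name no strain, sex or genetic change. Neurons (n = 3) were kept in Neurobasal medium with cytosine arabinoside (Ara-C), an inhibitor of DNA synthesis used against glia. Astrocytes (n = 4) were kept in MEM with horse serum and shaken overnight to take off the other cells. Oligodendrocytes (n = 3) were shaken off mixed cultures and plated on polylysine. Microglia (n = 3) were the cells floating above confluent mixed cultures. All samples are labelled as 10 days in vitro, although by the protocol microglia were taken at 7 days, and the series describes the samples of a type as biological replicates. From each sample, 100 ng of total RNA was labelled with Cy3 and hybridised to an array of its own. Neurons and oligodendrocytes lay on slide 1, astrocytes and microglia on slide 2, so that slide and cell type cannot be told apart except within neurons against oligodendrocytes and within astrocytes against microglia.

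A mature miRNA is cut from an arm of a folded precursor, the hairpin, and loaded into an Argonaute protein, where its seed (bases 2 to 8) pairs with target transcripts. The miR-99/100 family and the miR-125 family lie beside let-7 genes in clusters that are conserved among bilaterian animals, and the neighbours of a cluster can be cut from a shared primary transcript. miR-125 miRNAs are homologues of lin-4, which with let-7 sets the timing of larval development in Caenorhabditis elegans. In mammals miR-100 and miR-99a are known to act on mTOR transcripts, and miR-125b is known as abundant in brain and as a regulator of blood cell formation. The opposite arm of a hairpin, called the star or 3p strand here, is usually degraded.

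The mature sequences, from RefSeq on the build GRCr8, are shown because the seeds in capitals divide the members into their families. A mature sequence was matched for 4 of the 5 members and not for miR-99a.

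miR-99b: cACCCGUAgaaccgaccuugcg
miR-100: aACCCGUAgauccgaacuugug
miR-125a-5p: uCCCUGAGacccuuuaaccuguga
miR-125b-5p: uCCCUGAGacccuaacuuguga
let-7a: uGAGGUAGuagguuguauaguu
let-7c: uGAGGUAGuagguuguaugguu
let-7e: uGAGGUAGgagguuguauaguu

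Counted from the 5′ end, miR-100 differs from miR-99b by C1A, A11U, C16A and C21U and has 18 of 22 bases in common with it. miR-125a-5p and miR-125b-5p share their first 13 bases. let-7c differs from let-7a by A19G and let-7e differs from let-7a by U9G. How far such close sequences bind each other's probes was not measured. Levels of different miRNAs were therefore not ranked within a type, and their ratios were compared only between types. The effect of such binding on those ratios was not tested.

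The genes form 3 clusters in the GRCr8 annotation. Mir99b, Mirlet7e and Mir125a span 696 bases (chr1:67350064-67350759) inside the annotated extent of the protein-coding gene Spaca6. Mir100, Mirlet7a-2 and Mir125b1 span 51.8 kb (chr8:50798295-50850122), where the annotation places Mir100hgl and the lncRNA Lnc215. Mir99a, Mirlet7c1 and Mir125b2 span 45.3 kb (chr11:29687392-29732659) inside the lncRNA LOC103693508. In the latter clusters the miR-125b gene lies 44.7 kb and 44.4 kb beyond the let-7 gene, whereas in the chromosome 1 cluster the gaps are 95 and 353 bases. miR-125b-5p, let-7a and let-7c are each encoded at 2 loci, and their array signal cannot be divided between these.

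Levels are log2 of the background-subtracted intensity over the array's 75th percentile, so that 0 is the 75th percentile of the 119 miRNAs detected on every array, with a floor at -8.04. Summed miRNA signal ranged from 107624 to 514270 per array, with 241 to 258 miRNAs detected in neurons, 160 to 208 in astrocytes, 193 to 201 in oligodendrocytes and 160 to 176 in microglia. No spot was saturated. The neuronal markers (miR-124, miR-128 and 5 others) summed to 2958 to 3122% of the 75th percentile in neurons. They summed to 106 to 118% in astrocytes, 176 to 467% in oligodendrocytes and 8.47 to 19.2% in microglia, where 1 of 7 was detected. The myeloid markers (miR-142-3p, miR-142-5p, miR-223 and miR-146a) summed to 2664 to 3043% in microglia, 184 to 191% in astrocytes, 60.2 to 165% in oligodendrocytes and 2.39 to 2.89% in neurons. The oligodendrocyte markers (miR-219-5p, miR-219-2-3p, miR-338 and miR-338*) summed to 714 to 1243% in oligodendrocytes, 234 to 267% in astrocytes and at most 77% elsewhere. The astrocyte list was not specific, since its sum in microglia (2701 to 5145%) spanned that in astrocytes (3119 to 3522%). Oligodendrocyte array 2 stood apart from the other 2 oligodendrocyte arrays, with miR-124 at 1.21 against -1.72 and -0.94, and miR-146a at -0.19 against -1.79 and -1.36.

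The first comparison asked whether each member differed among the 4 cell types. miR-125b-5p was at 4.33, 4.31 and 4.36 in the 3 neuron arrays. It was at 3.00, 2.99, 2.92 and 2.94 in astrocytes, at 1.42, 2.36 and 1.71 in oligodendrocytes, and at -0.65, -0.37 and -0.45 in microglia. The 4 types did not overlap, and the order was neurons, astrocytes, oligodendrocytes, microglia, with each neighbouring pair past the test.

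miR-99a, encoded upstream of let-7c on chromosome 11, had the same order. It was at 1.85, 1.90 and 1.87 in neurons and at 1.16, 1.14, 1.17 and 1.25 in astrocytes. It was at 0.01, 0.15 and 0.05 in oligodendrocytes and at -0.49, -0.39 and -0.42 in microglia. No 2 types overlapped, and arrays of 1 type lay within 0.14 of each other.

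miR-100, the chromosome 8 member of the same family, again had this order. Its levels were -0.13, -0.00 and -0.14 in neurons and -0.85, -0.91, -0.90 and -0.78 in astrocytes. They were -2.53, -1.98 and -2.37 in oligodendrocytes and -3.39, -3.51 and -3.33 in microglia. The types did not overlap, and oligodendrocyte array 2 was the highest of its group for miR-99a, miR-100 and miR-125b-5p alike.

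Of the chromosome 1 members, miR-99b had another pattern. miR-99b was at -1.48, -1.69 and -1.65 in neurons, at -1.47, -1.47, -1.59 and -1.61 in astrocytes, and at -1.49, -1.57 and -1.47 in oligodendrocytes. It was at -4.54, -4.06 and -5.17 in microglia. Neurons, astrocytes and oligodendrocytes overlapped, and every microglia array lay far below them.

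miR-125a-5p was at -0.16, -0.27 and -0.04 in neurons, at -0.63, -0.54, -0.79 and -0.81 in astrocytes, and at -1.03, -1.02 and -1.02 in oligodendrocytes. It was at -3.81, -3.13 and -3.85 in microglia. The types did not overlap and had the order of miR-125b-5p. Astrocytes and oligodendrocytes lay close together, and the fall to microglia was again the widest step. Microglia array 2 was the highest of its group for miR-99b, miR-125a-5p and let-7e alike (let-7e at -3.18, -2.64 and -3.88).

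**Figure D1:**
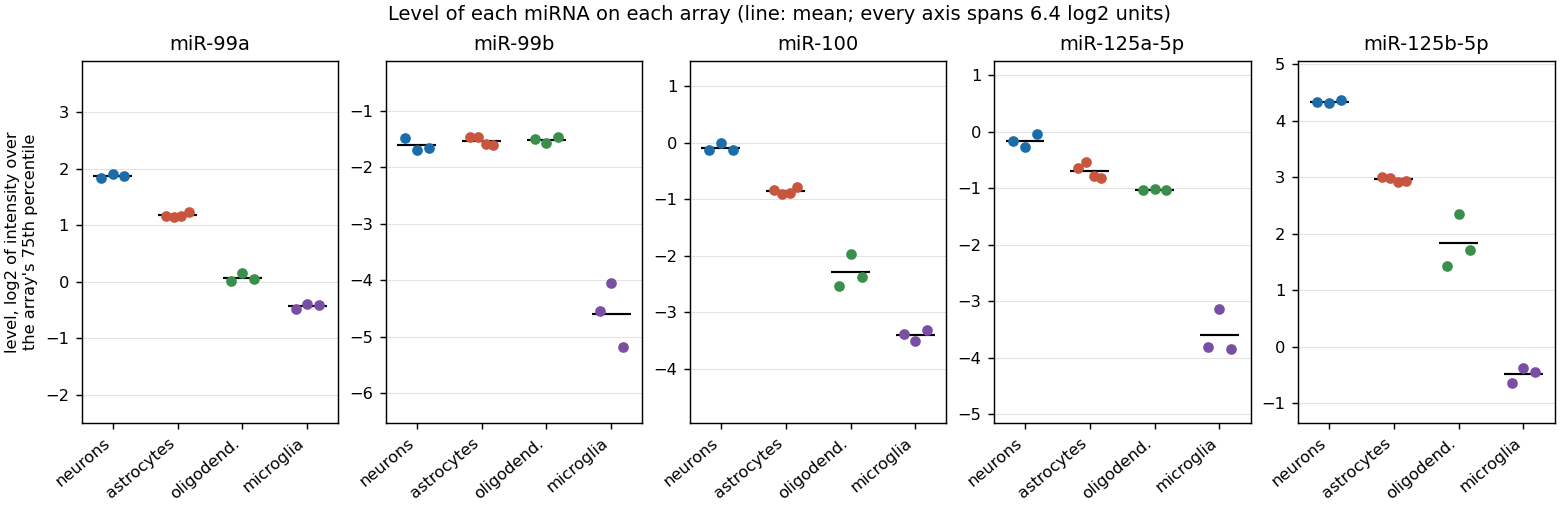
Level of the 5 miRNAs on each of the 13 arrays, as log2 of the intensity over the array's 75th percentile, with a line at each mean; every vertical axis spans 6.4 log2 units. miR-99a, miR-100, miR-125a-5p and miR-125b-5p descend through all 4 types. miR-99b lies between -1.69 and -1.47 in 3 types and between -5.17 and -4.06 in microglia.

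All 5 members differed among the types by the limma F test (Benjamini-Hochberg adjusted p from 3.09e-11 for miR-99a to 9.33e-08 for miR-99b), where 95.5% of the 268 tested miRNAs did. Arrays did not overlap for 83.2% of tested miRNAs in each comparison with neurons, 65.7% between astrocytes and oligodendrocytes, 62.7% between astrocytes and microglia, and 60.8% between oligodendrocytes and microglia. Counts of members are read against these shares.

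Against microglia, the members were lower than in any other culture. miR-99b was 8.33-fold lower in microglia than in astrocytes (log2 difference 3.06 ± 0.199 SE, n = 4 and 3 arrays, limma adjusted p = 1.02e-07), within slide 2. In the same comparison miR-125b-5p was 10.9-fold lower (3.45 ± 0.173, limma adjusted p = 9.43e-09), miR-125a-5p 7.5-fold lower (2.91 ± 0.156, limma adjusted p = 1.88e-08) and miR-100 5.85-fold lower (2.55 ± 0.114, limma adjusted p = 3.77e-09). miR-99a was lower by the smallest factor as processed here, 3.05-fold (1.61 ± 0.0553, limma adjusted p = 4.04e-10). Under another background correction (normexp) its gap to miR-99b nearly closed, with a difference of -0.02 in the ratio of miR-99a to miR-99b. All 5 members were called higher in astrocytes than in microglia, as were 29.9% of tested miRNAs, and the median difference was 2.91 over the members and -0.02 over all tested.

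Neurons and oligodendrocytes also exceeded microglia in 5 of 5 members, against 52.2% and 32.1% of tested miRNAs called in that direction. The median difference was 3.32 over the members and 0.58 over all tested for neurons, and 2.32 and 0.00 for oligodendrocytes. From neurons to microglia miR-125b-5p fell 28.4-fold, miR-125a-5p 10.8-fold, miR-100 9.99-fold, miR-99b 7.91-fold and miR-99a 4.94-fold. The order of miR-99b and miR-99a in this comparison turned under normexp, where miR-99a over miR-99b differed by 0.76. From oligodendrocytes to microglia miR-99b fell 8.46-fold, miR-125a-5p 5.96-fold, miR-125b-5p 4.99-fold, miR-100 2.16-fold and miR-99a 1.42-fold. In bulk RNA, fewer cells that hold a miRNA and less of it per cell cannot be told apart.

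By the rule that asks for at least 1 in log2 against each other type, with all 3 tests passed, miR-99b, miR-100, miR-125a-5p and miR-125b-5p were lower in microglia, as were 15.7% of tested miRNAs. miR-99a missed the rule because of its 1.42-fold difference from oligodendrocytes. The call of miR-100 depended on oligodendrocyte array 2, without which the oligodendrocyte difference was 0.96, and it was lost under 5 other settings of the processing. miR-99b, miR-125a-5p and miR-125b-5p kept the call under every setting tried. Myeloid markers were present in astrocytes and oligodendrocytes at the sums given, and their part in these differences was not tested.

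**Figure D2:**
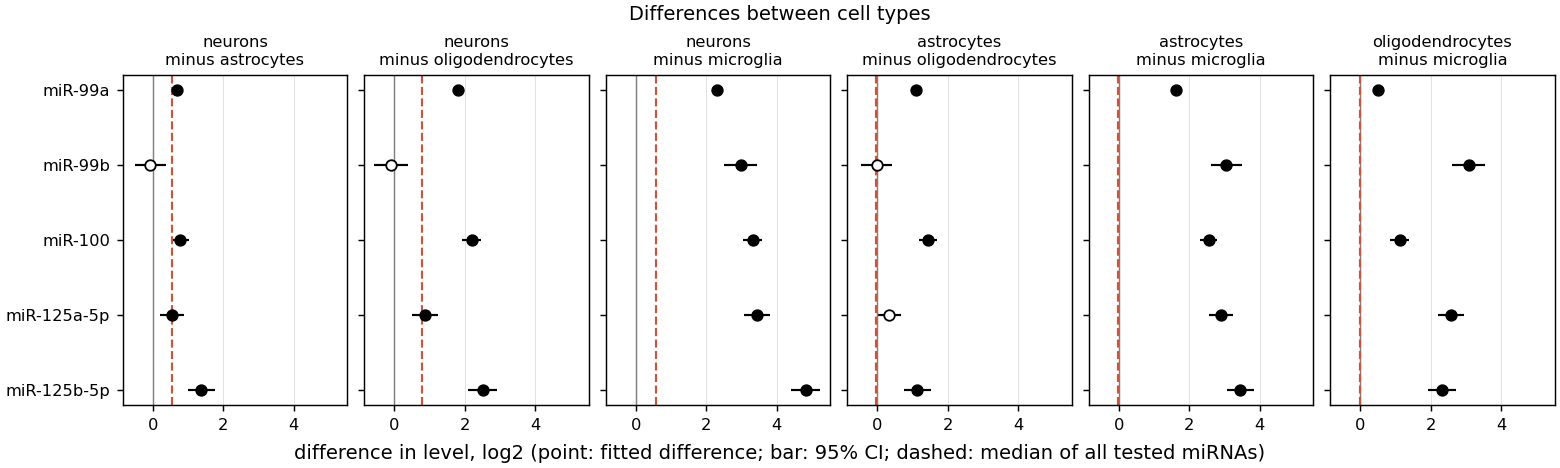
Fitted log2 differences between the 6 pairs of cell types (point) with 95% confidence intervals (bar); filled points have an adjusted p under 0.05, and the dashed line is the median over all 268 tested miRNAs. In the 3 comparisons with microglia every member lies to the right of that line, by the most for miR-125b-5p in neurons at 4.83.

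Neurons were compared with the other 2 cultures of neural origin. On slide 1, neurons exceeded oligodendrocytes in miR-125b-5p by 5.68-fold (log2 2.51 ± 0.185 SE, limma adjusted p = 2.04e-07), in miR-100 by 4.61-fold (2.21 ± 0.122, limma adjusted p = 2.05e-08), in miR-99a by 3.48-fold (1.80 ± 0.0591, limma adjusted p = 1.59e-10) and in miR-125a-5p by 1.82-fold (0.86 ± 0.167, limma adjusted p = 0.000601). These 4 of 5 members stand against 58.2% of tested miRNAs called higher in neurons, with a median of 1.80 over the members and 0.79 over all tested. miR-99b had a difference of -0.10 with a 95% interval from -0.57 to 0.38 (limma adjusted p = 0.711). Without oligodendrocyte array 2, whose neuronal marker sum was the highest of its group, the differences were 2.77 for miR-125b-5p and 2.36 for miR-100.

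Against astrocytes, neurons were higher in the same 4 members by 2.59-fold for miR-125b-5p, 1.71-fold for miR-100, 1.62-fold for miR-99a and 1.45-fold for miR-125a-5p, with limma adjusted p from 3.98e-07 to 0.00892. In this comparison 56% of tested miRNAs were called higher in neurons, and the median was 0.69 over the members and 0.54 over all tested. miR-99b again did not pass (-0.07, 95% interval -0.51 to 0.37, limma adjusted p = 0.766).

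These directions depended on how neurons were scaled. Neuron arrays detected more miRNAs, and taking the 75th percentile over all miRNAs shifted the neuron differences by -0.96 against astrocytes, -1.01 against oligodendrocytes and -1.20 against microglia. The share of calls that were higher in neurons fell from 68.8% to 41.9%, from 74.6% to 45% and from 62.8% to 44.7%. Against astrocytes the difference then became -0.26 for miR-99a, -0.19 for miR-100 and -0.43 for miR-125a-5p, while miR-125b-5p stayed higher. In the deposited table miR-125a-5p was not called against astrocytes (0.090), and miR-99b was called lower in neurons than in astrocytes (-0.98) and oligodendrocytes (-0.81). Under both scalings 3 of the 5 members lay above the median of all tested miRNAs, which was 0.54 and then -0.27. miR-125b-5p was the single member higher in neurons than in each other type by at least 1 in log2, as 27.2% of tested miRNAs were, and it lost that call under this scaling.

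Astrocytes, on another slide than oligodendrocytes, were higher in 3 of 5 members, against 25.7% of tested miRNAs called higher in astrocytes. In either direction 56.3% of tested miRNAs were called. miR-100 was 2.71-fold higher in astrocytes (1.44 ± 0.114, limma adjusted p = 1.55e-06), miR-125b-5p 2.19-fold (1.13 ± 0.173, limma adjusted p = 0.00018) and miR-99a 2.15-fold (1.11 ± 0.0553, limma adjusted p = 3.25e-08). miR-125a-5p had a difference of 0.33 with an interval from -0.02 to 0.68 (limma adjusted p = 0.0948), and miR-99b one of -0.02 with an interval from -0.46 to 0.42. The median was 1.11 over the members and -0.04 over all tested. Arrays of the 2 types did not overlap for miR-125a-5p, and with only these groups in the fit it passed (limma adjusted p = 0.0104).

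The let-7 miRNAs of the clusters were read next. let-7c, which shares the chromosome 11 cluster with miR-99a, was at 3.23, 3.44 and 3.47 in neurons and at 2.97, 2.92, 2.91 and 2.95 in astrocytes. It was at 2.09, 2.23 and 2.13 in oligodendrocytes and at -0.38, -0.11 and -0.19 in microglia. let-7c and let-7e were lower in microglia than in each other type, with smallest folds of 5.19 and 6.86. let-7a, of the chromosome 8 cluster, was at 2.24 ± 0.0446 in oligodendrocytes and 2.09 ± 0.0907 in microglia (SD, n = 3 each), a difference of 0.15 with an interval from -0.04 to 0.33 (limma adjusted p = 0.158). Of the other 5 let-7 miRNAs, let-7b (8.52-fold) and miR-98 (2.04-fold) were lower in microglia than in each other type, whereas let-7d, let-7f and let-7i were not. From oligodendrocytes to microglia these 5 had a median difference of 0.23, from -0.05 for let-7i to 3.09 for let-7b.

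Ratios within an array do not depend on a constant factor per array and show whether miRNAs of a cluster changed by unequal amounts. For 10 ratios fixed in the design, each of the 6 pairs of types was tested over 267 miRNAs. In the chromosome 1 cluster, miR-99b over miR-125a-5p differed in 2 pairs and miR-99b over let-7e in 3, where 75.5% of the tests of all miRNAs relative to miR-99b passed over the 6 pairs. miR-99b over miR-125a-5p was 1.95-fold lower in neurons than in oligodendrocytes (log2 -0.96, limma adjusted p = 0.00155) and 1.52-fold lower than in astrocytes (-0.61, limma adjusted p = 0.0217). The astrocyte call was lost in 5 of 13 fits that left out an array each (-0.67 to -0.53) and with the replicate number as a block (limma adjusted p = 0.0904). Its difference from microglia was -0.46 in neurons, 0.15 in astrocytes and 0.51 in oligodendrocytes, none of which passed. miR-125a-5p over let-7e, read after its values were seen, differed in 0 of 6 pairs by limma, and in 0 at an unadjusted p under 0.05, with a largest difference of 0.44, where 78% of tests relative to miR-125a-5p passed. Up to 2 of its pairs were called under other settings.

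In the clusters on chromosomes 8 and 11 the ratios fixed in the design moved more. Ratios of miR-125b-5p to let-7 were read after their values were seen, where 90.8% of tests relative to miR-125b-5p passed. miR-125b-5p over let-7a differed in 6 of 6 pairs, by up to 3.69. miR-125b-5p over let-7c differed in 3 of 6, by up to 1.28, and in 3 to 6 with an array left out. miR-100 over let-7a differed in 6 of 6 pairs and was 4.53-fold lower in microglia than in neurons (2.18, limma adjusted p = 3.64e-09), where 88.5% of tests relative to miR-100 passed. miR-99a over let-7c also differed in 6 of 6, where 85.7% of tests relative to miR-99a passed. Against microglia it went in the other direction, 2.46-fold higher in microglia than in neurons (-1.30, limma adjusted p = 1.71e-08). Without microglia the 2 ratios had the same sign, as for neurons minus oligodendrocytes (miR-100 over let-7a 1.21, miR-99a over let-7c 0.57). Between neurons and astrocytes the call of miR-99a over let-7c (0.25) was lost in 1 of 13 fits that left out an array each. It was also lost under 1 of 10 other settings. miR-99a over miR-125b-5p differed in 5 pairs and was 5.74-fold higher in microglia than in neurons, with no overlap of arrays. miR-100 over miR-125b-5p differed in 5 pairs and was 2.84-fold higher in microglia than in neurons. Of these, miR-100 over miR-125b-5p between astrocytes and oligodendrocytes (0.30, limma adjusted p = 0.0445) lost its call in 10 of 13 fits that left out an array each (0.20 to 0.39) and under 3 of 10 other settings. miR-100 over let-7a between neurons and astrocytes (0.33, limma adjusted p = 0.0366) lost its call in 6 of those 13 fits and under 3 settings, and with normexp, another background correction, this ratio differed in 4 pairs.

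**Figure D3:**
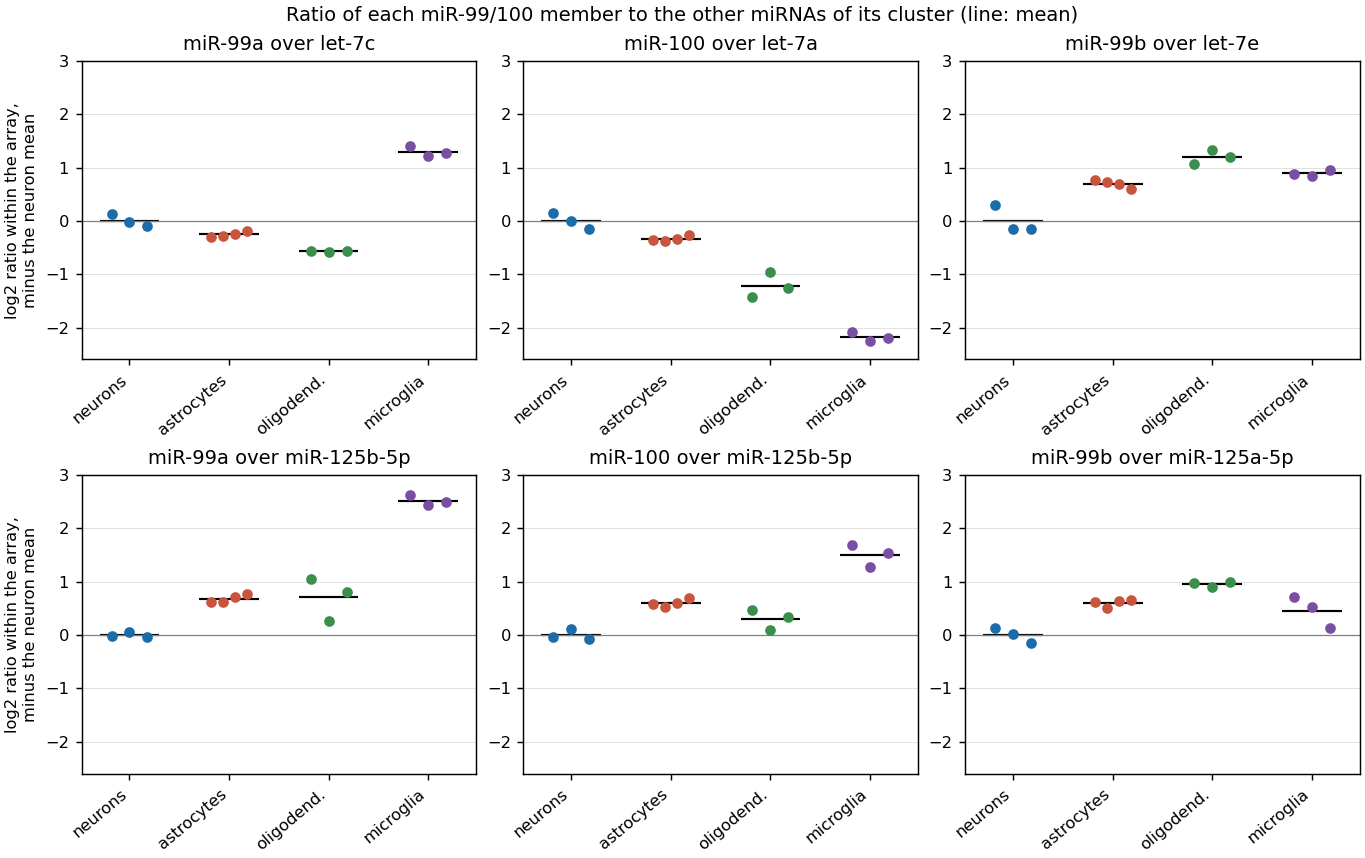
Log2 ratio of miR-99a, miR-100 and miR-99b to their cluster neighbours on each array, with the mean of the neuron arrays set to 0; lines are means. Microglia lie 1.30 above neurons for miR-99a over let-7c and 2.18 below them for miR-100 over let-7a, while the ratio of miR-99b to miR-125a-5p has type means within 0.96 of that of neurons.

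Paralogs were compared in the same way. Over the 6 pairs, 85.7% of tests relative to miR-99a passed, 75.5% relative to miR-99b and 78% relative to miR-125a-5p. miR-99a over miR-99b was 5.96-fold higher in microglia than in oligodendrocytes (limma adjusted p = 4.96e-07). It passed in all 6 pairs, but its difference between neurons and microglia (-0.68) turned to 0.76 under the normexp background correction, and that between astrocytes and microglia (-1.45) fell to -0.02 there, so that no direction is given for either. miR-99b over miR-100 differed in 4 pairs and was 4.93-fold higher in oligodendrocytes than in neurons (limma adjusted p = 3.76e-06). miR-125a-5p over miR-125b-5p differed in 5 pairs, 1 of which (astrocytes against microglia, -0.55) lost its call in 5 of 13 fits that left out an array each, and was 3.12-fold higher in oligodendrocytes than in neurons (limma adjusted p = 2.39e-05). miR-99a over miR-100 did not pass between neurons and astrocytes (-0.08, interval -0.30 to 0.15) and was 2.02-fold higher in microglia than in neurons, a call that was lost under the other background correction, as were all 5 of this ratio's calls.

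The hairpins of miR-99b and miR-125a are shown because the signals of their arms moved in opposite directions between microglia and each other type. Between neurons and astrocytes both arms of miR-125a were higher in neurons (0.53 for the 5p arm and 1.55 for the 3p arm). What the star probes bound in microglia was not tested. Both arms of each hairpin are in capitals, the 5p arm first, as RefSeq gives them on GRCr8.

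Mir99b: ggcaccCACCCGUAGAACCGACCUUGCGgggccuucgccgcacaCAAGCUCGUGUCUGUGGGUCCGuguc
Mir125a: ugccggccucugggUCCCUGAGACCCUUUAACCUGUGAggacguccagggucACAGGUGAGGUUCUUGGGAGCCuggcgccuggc

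Mir99b lies at chr1:67350064-67350133 and Mir125a at chr1:67350675-67350759, both on the plus strand. miR-99b*, the opposite arm of miR-99b, was at -5.68, -6.04 and -6.12 in neurons, at -5.22, -5.04, -5.26 and -5.30 in astrocytes, and at -5.95, -5.40 and -5.84 in oligodendrocytes. It was at -3.98, -2.85 and -3.14 in microglia, above every other array. Microglia exceeded astrocytes by 3.69-fold (limma adjusted p = 2.83e-05), oligodendrocytes by 5.31-fold (limma adjusted p = 6.29e-06) and neurons by 6.18-fold (limma adjusted p = 1.86e-06).

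miR-125a-3p, the opposite arm of miR-125a-5p, was at -3.04, -3.56 and -3.16 in neurons, at -4.75, -4.73, -4.96 and -4.76 in astrocytes, and at -4.01, -3.65 and -4.01 in oligodendrocytes. It was at -2.47, -1.13 and -1.59 in microglia, again above every other array. Microglia exceeded neurons by 2.88-fold (limma adjusted p = 0.000356), oligodendrocytes by 4.47-fold (limma adjusted p = 3.06e-05) and astrocytes by 8.4-fold (limma adjusted p = 9.13e-07). Both star strands met the rule for higher in microglia than in each other type, as did 12.7% of tested miRNAs. The neuron difference of miR-125a-3p was not called without scaling (limma adjusted p = 0.139).

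Within an array, miR-99b over miR-99b* was 30.7-fold lower in microglia than in astrocytes (log2 4.94, limma adjusted p = 8.9e-11), and miR-125a-5p over miR-125a-3p was 63-fold lower (5.98, limma adjusted p = 2.15e-12). These ratios were read after their values were seen. Under the alternatives, including the replicates left out, the former ranged from 2.61 to 5.29 and the latter from 3.86 to 6.24.

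Of 9 opposite arms of members and let-7 partners sought, 6 were on the array and 5 were tested. The arms of miR-99a moved together. miR-99a* was at -3.76, -4.00 and -3.80 in neurons, at -4.11, -4.18, -4.36 and -4.19 in astrocytes, at -5.31, -5.12 and -5.27 in oligodendrocytes, and at -6.52, -6.49 and -5.68 in microglia. Its descending order was that of miR-99a. The largest change of the ratio between the arms was 0.49, with 2 of 6 pairs called (85.7% of tests relative to miR-99a passed). With the normexp background correction its differences from microglia were not called, at 0.15 for neurons (2.38 as reported), 0.13 for astrocytes and -0.22 for oligodendrocytes. miR-125b*, the star strand of the chromosome 11 copy of miR-125b, was dim, between -6.87 and -5.70 on all arrays. miR-125b-5p over miR-125b* was 21.8-fold lower in microglia than in neurons and differed in 5 of 6 pairs (90.8% of tests relative to miR-125b-5p passed). This ratio does not compare the arms of a single hairpin, since miR-125b-5p is encoded at 2 loci. miR-125b-3p, from the chromosome 8 copy, was detected on 0 of 13 arrays, and let-7e* on 6.

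**Figure D4:**
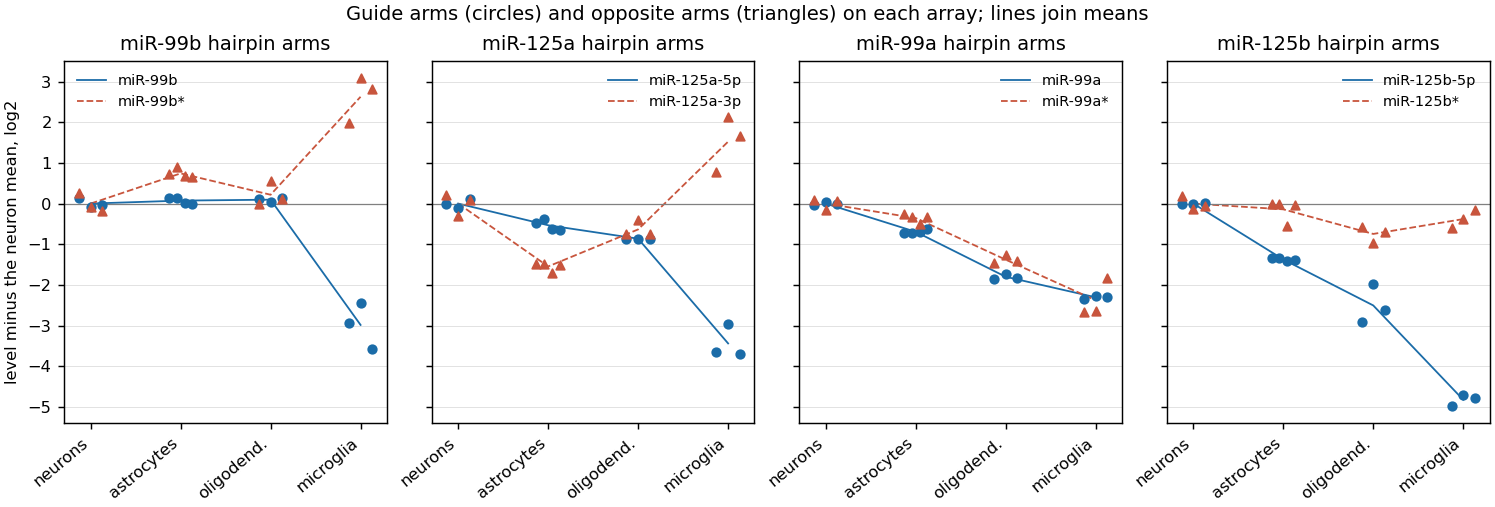
Levels of the 5p arms (circles) and opposite arms (triangles) of 4 miRNAs on each array, in log2 relative to the neuron mean of the same arm. miR-125b* comes from the chromosome 11 hairpin alone, whereas miR-125b-5p is encoded at 2 loci. In microglia the arms of miR-99b and miR-125a part, with miR-99b* up to -2.85 and miR-99b down to -5.17 in level, whereas miR-99a and miR-99a* descend together.

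The array carries 2 probes for each member and 4 for each star strand, nested so that each pairs with 1 base more than the last. Both probes of each member put microglia lowest. For miR-100 they differed in size, with neurons over microglia at 5.53 by the shorter probe (18 bases) and 2.97 by the longer (19 bases), and the shorter lay near the floor in microglia at -6.90. For miR-99b* the longest probe exceeded the shortest by 1.39 ± 0.14 in neurons, 1.08 ± 0.21 in astrocytes and 1.64 ± 0.55 in oligodendrocytes, and by -0.18 ± 0.08 in microglia (SD over arrays). For miR-125a-3p the step was 0.07 ± 0.04 in microglia and 0.87 ± 0.28 in astrocytes, but 0.27 ± 0.03 in neurons and 0.37 ± 0.05 in oligodendrocytes. For miR-99a* it was 2.60 ± 0.15 in microglia and 5.13 ± 0.14 in neurons. The shortest probe of miR-99a* lay at the floor in neurons (-8.04) and near it in microglia (-7.93). These 2 steps are therefore limited by the floor and follow the level of the longest probe. Among the other 12 miRNAs with 4 such probes that were detected on every array, the median step in microglia was 4.53, and 1 (miR-877, at 0.24) lay under 0.5. What the probes of miR-99b* and miR-125a-3p bound in microglia was not tested.

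**Figure D5:**
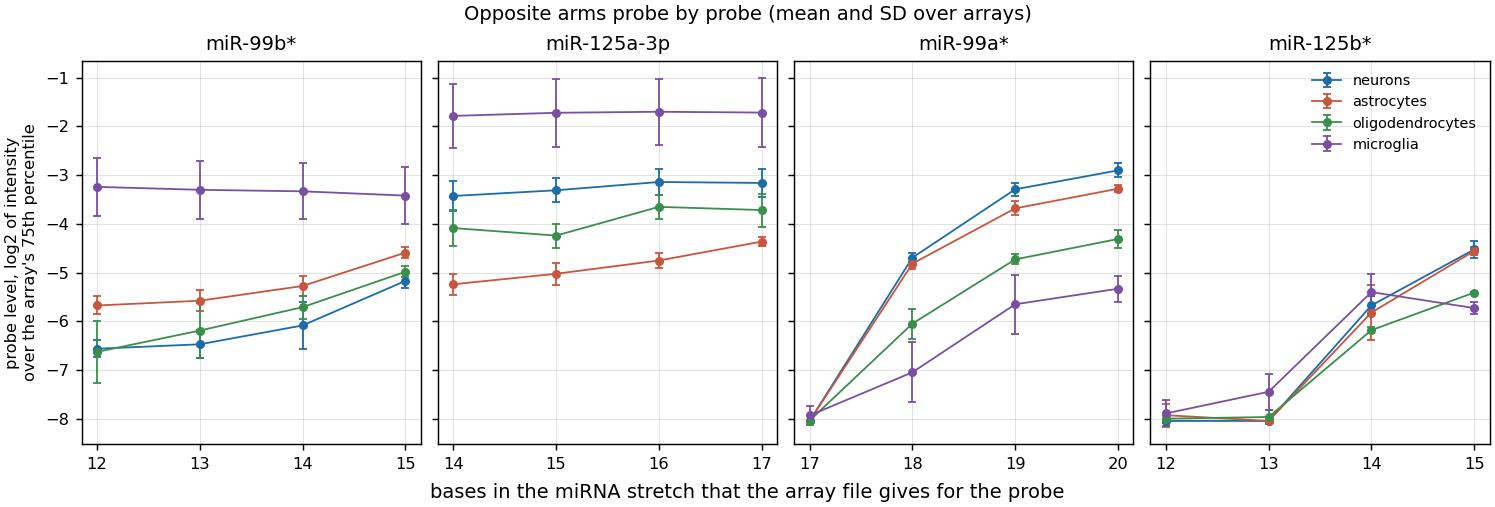
Probe levels of the star strands against the number of bases in the stretch of the miRNA that the array file gives for the probe, as mean and SD over the arrays of each type. In microglia the line of miR-99b* is flat near -3.3, while in the other 3 types it climbs by 1.08 to 1.64.

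Other miRNAs related by sequence were fewer. miR-351, which shares the seed of miR-125 and lies on the X chromosome, was detected on 9 arrays and was higher in oligodendrocytes (-5.67, -4.91 and -5.59) than in each other type with a smallest fold of 2.85, although 1 microglia array at -5.30 lay inside their range (limma adjusted p = 0.0332 against microglia). Oligodendrocyte-high calls made up 4.85% of tested miRNAs. miR-10a-5p, of the related miR-10 family, was at -4.40, -4.18 and -4.40 in neurons and was detected on 0 of 3 microglia arrays. miR-10b was detected on none.

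Likeness to each member was measured as the root mean square difference over 13 arrays after centring each miRNA on the mean of its type means. Among members and let-7 partners, the nearest was miR-125a-5p to miR-99b (0.36), let-7c and let-7e to miR-125a-5p (both 0.24), miR-99a to miR-100 and the reverse (0.41), and let-7c to miR-125b-5p (0.52). The other tested miRNAs were ranked with members and let-7a, let-7c and let-7e left out. By that ranking miR-499 was nearest to miR-99a (0.27 in log2, Pearson r = 0.982), followed by miR-99a* and miR-195, and to miR-100 (0.22, r = 0.994), followed by miR-195 and miR-99a*. let-7b was the first for miR-125a-5p (0.38, r = 0.990), before miR-130a and miR-194. miR-344-3p was the first for miR-125b-5p (0.42, r = 0.970), before miR-497 and let-7b. miR-672 was the first for miR-99b (0.51, r = 0.939), before miR-384-3p and miR-130a. Among the members, miR-99a and miR-100 had an r of 0.989 and miR-99b and miR-125a-5p one of 0.962, against 0.683 for miR-99a and miR-99b. The arrays share their 4 types, slides and scaling, so these values describe likeness alone.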

How the data were processed

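Total RNA of 13 cultures was measured on 1-colour Agilent rat miRNA arrays. The authors extracted spot intensities with Agilent Feature Extraction 9.5.3.1, background subtraction included, per the file headers. Each miRNA also has a summed signal and a detection call. The deposited series table holds log2 values whose method is not stated in the sources used here, and it served as an alternative.

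Spots with an outlier call were dropped, and spots were averaged per probe and probes per miRNA. Values were scaled to the array's 75th percentile across 119 miRNAs with a detection call on every array, floored at 0.38% of it (-8.04 in log2) and put on the log2 scale. limma 3.58.1 (R 4.3.3; lmFit, eBayes) fitted the 268 miRNAs that at least 3 arrays detected, with Benjamini-Hochberg adjustment per pair of types and a threshold of 0.05. The same fit was made for log2 ratios to each member. The steps were tested on simulated data. Sequences and gene positions came from RefSeq tables on GRCr8. The number of arrays limits the precision. The named miRNAs were the 5 members, let-7 miRNAs, opposite arms, seed sharers, miR-10 miRNAs, cell type markers and the 3 miRNAs most like each member. Members, lists and tests were chosen with earlier results of these data known. Alternatives covered background correction, scaling, probe summary, filter, floor, variance model, replicate block, single probes and each array left out.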

Additional observations from a re-analysis of the deposited data

Results flagged for a closer look

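Among 20 groups of 4 astrocyte arrays tested for a lone extreme array, 2 passed Dixon's 95% limit of 0.829, and chance passes about 1 in 20. miR-125a-3p on astrocyte array 3 lay lowest at -4.96, with the next array at -4.76, a gap of 0.853 of the group's range. miR-125b* on the same array lay lowest at -6.44, with the next at -5.92, a gap of 0.952 of the range. That array had an outlier call on 528 of 7000 miRNA spots, the most of any array. It detected 160 miRNAs, the fewest of the astrocyte arrays.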

How the results depend on the processing

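The differences of the 5 members from microglia stayed positive and called in all 3 comparisons under every alternative, and the F tests stayed called. Their size varied, for miR-99b from 1.44 to 3.94 with neurons and from 1.56 to 3.64 with oligodendrocytes. The 75th percentile over all miRNAs changed neurons minus astrocytes to -0.26 for miR-99a, -0.19 for miR-100, -0.43 for miR-125a-5p and -1.03 for miR-99b, with 1 member higher and 3 lower. It changed neurons minus oligodendrocytes to -1.10 for miR-99b and -0.14 for miR-125a-5p, with 1 lower, left 0 members higher in neurons than in each other type, and gave let-7a -0.061 for neurons and -0.048 for oligodendrocytes minus microglia. Quantile normalization gave miR-99b -0.95 against astrocytes, -0.78 against oligodendrocytes and 0.17 for astrocytes minus oligodendrocytes, miR-125a-5p 0.10 for neurons minus astrocytes, and 1 member lower in neurons in each comparison. The deposited table gave -0.98, -0.81, 0.17 and 0.090, with 1 lower in each. In these neuron comparisons the median shift over the tested miRNAs was -1.04 and -0.97 with quantile normalization. With the deposited table it was -0.81 and -0.78. Without scaling, miR-99b differed by 0.23, 0.31 and 0.080 in the 3 comparisons without microglia, and 2 members were higher in neurons than in each other type. With the brightest probe miR-99b was at 0.016 for astrocytes minus oligodendrocytes, and with the longer probe alone at 0.016, where miR-125a-5p was at 0.40 for neurons minus astrocytes. With only the 2 groups in the fit, miR-125a-5p passed for astrocytes minus oligodendrocytes (0.33, limma adjusted p = 0.0104). Under normexp, miR-99b over let-7e differed in 6 pairs, miR-99b over miR-125a-5p in 4 and miR-99a over miR-100 in 0. For oligodendrocytes minus microglia normexp turned miR-99b over let-7e to -0.39, miR-99b over miR-125a-5p to -0.068, miR-125a-5p over miR-125b-5p to -0.57 and miR-99a* to -0.22, with miR-99a* at 0.13 for astrocytes minus microglia. For astrocytes minus microglia it turned miR-99b over miR-125a-5p to -0.38 and miR-99b over miR-100 to -0.16, and for neurons minus microglia miR-99a over miR-99b to 0.76. Quantile normalization put that last ratio at 0.42 and the deposited table at 0.57, and miR-125a-5p over miR-125b-5p for oligodendrocytes minus microglia was -0.50 and -0.53. For astrocytes minus oligodendrocytes miR-99a over miR-125b-5p was 0.27 and 0.23, and for neurons minus astrocytes miR-99a over miR-100 was 0.21 and 0.14, and 0.015 with the brightest probe. The deposited table also gave -0.0358 for miR-99b over let-7e and -0.017 for miR-99b over miR-125a-5p, for oligodendrocytes and astrocytes minus microglia. The labels do not tie same-numbered cultures of different types to each other. Of 18 same-numbered pairs of arrays, 3 had correlated deviations over 0.1 (r from -0.339 to 0.202). Deviations from the means of so few arrays cannot show whether the samples were paired. With the replicate number as a block, miR-99b was at 0.00155 for astrocytes minus oligodendrocytes and miR-99b over miR-125a-5p differed in 1 pair, with no other reversal. Leaving out each array moved miR-99b for astrocytes minus oligodendrocytes from -0.053 to 0.014, miR-125a-5p from 0.28 to 0.38 in that comparison and from 0.43 to 0.59 for neurons minus astrocytes (uncalled without astrocyte array 3), and the pairs in which miR-99b over miR-125a-5p differed from 1 to 5, the latter without microglia array 3. It moved miR-99a over miR-125b-5p for astrocytes minus oligodendrocytes from -0.25 to 0.15 and miR-99b over miR-125a-5p for astrocytes minus microglia from -0.013 to 0.28. The cause of these changes was not tested. Signal over background limits miR-99b and miR-125a-5p in microglia, where they were lowest, and the dim star strands miR-99a* and miR-125b*. The same limit holds for miR-99b* outside microglia, with means of -5.95 in neurons, -5.21 in astrocytes and -5.73 in oligodendrocytes. These levels enter the ratio of miR-99b to miR-99b*.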
